A study of Arabidopsis thaliana with 3 samples.

Results

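The YABBY, KANADI and AS2 genes, which set the abaxial (lower) and adaxial (upper) sides of leaves and floral organs, were followed in Arabidopsis thaliana inflorescences that express a splice variant of SEPALLATA3. They were chosen by locus identifier from the authors' deposited comparison table, where all 10 were found among 19777 genes. They are FIL (AT2G45190), YAB2 (AT1G08465), YAB3 (AT4G00180), YAB5 (AT2G26580), INO (AT1G23420), CRC (AT1G69180), KAN1 (AT5G16560), KAN2 (AT1G32240), KAN3 (AT4G17695) and AS2 (AT1G65620). That table lists FIL as AFO and KAN1 as KAN. The compared groups were sep1sep2sep3 triple mutants expressing SEP3Δtet, in 3 independent transgenic lines with 1 library each, and sep1sep2sep3 triple mutants without it. Both groups therefore lack SEP1, SEP2 and SEP3 function, apart from the variant. Which promoter drives the transgene, and how many triple-mutant libraries entered the comparison, is not stated in the sources used here. RNA came from inflorescence meristems and flower buds of plants grown together in long days. The age limit of the buds differs in the labels, which end at stages 10-11 for line 1, 10-12 for line 2 and 10-13 for line 3, whereas the series text has 10-11 throughout.

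YABBY proteins combine a zinc finger with a DNA-binding YABBY domain, and in Arabidopsis they promote blade growth and abaxial fate. KANADI proteins are GARP-domain repressors of adaxial genes, and AS2, a LOB-domain protein, acts with the MYB protein AS1 on the adaxial side to repress KNOX and abaxial genes. FIL, YAB2, YAB3 and YAB5 act broadly in leaves and floral organs, while CRC is tied to carpels and nectaries and INO to the outer integument of the ovule.

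The coding sequences show how alike the members are, which matters for values that count reads per gene. The most conserved ungapped stretch of 60 bases in the alignment of the 6 YABBY coding sequences (TAIR10.1 reference, coding strand, read 5′ to 3′) has 34 bases shared by all 6, set in capitals.
FIL: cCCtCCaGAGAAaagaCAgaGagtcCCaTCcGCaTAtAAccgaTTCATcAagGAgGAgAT
YAB2: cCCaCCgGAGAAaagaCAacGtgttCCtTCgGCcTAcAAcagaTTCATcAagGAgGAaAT
YAB3: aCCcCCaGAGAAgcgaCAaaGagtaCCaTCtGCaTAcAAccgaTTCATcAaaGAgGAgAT
YAB5: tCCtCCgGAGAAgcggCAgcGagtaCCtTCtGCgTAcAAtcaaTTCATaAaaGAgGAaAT
INO: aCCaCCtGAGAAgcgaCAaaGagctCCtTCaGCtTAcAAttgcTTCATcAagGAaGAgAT
CRC: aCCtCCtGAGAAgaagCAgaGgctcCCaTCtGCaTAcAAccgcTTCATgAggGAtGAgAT
Among the 3 KANADI genes the matching stretch of 60 bases has 47 bases in common, again in capitals.
KAN1: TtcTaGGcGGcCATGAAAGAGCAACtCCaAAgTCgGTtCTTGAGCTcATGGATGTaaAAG
KAN2: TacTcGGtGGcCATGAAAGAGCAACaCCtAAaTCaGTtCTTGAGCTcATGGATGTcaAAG
KAN3: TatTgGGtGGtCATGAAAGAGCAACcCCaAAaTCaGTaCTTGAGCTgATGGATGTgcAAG
FIL and YAB3 were the most similar YABBY genes over their coding sequences, at 75.4% identity over 674 aligned bases, and KAN2 and KAN3 the most similar KANADI genes, at 73.5% over 914. The longest run of identical bases between transcripts of any 2 YABBY or any 2 KANADI members was 20 bases, far under the read length of 150 bp. Among the members' best-scoring BLAST matches outside their own loci in the whole genome, the longest was that of AS2 to LOB (AT5G63090), 251 bases at 82.9% identity, while FIL and YAB3 matched each other at a higher identity, 89.2%, over 74 bases.

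The values are 1 log2 fold change, 1 average level and 1 test per gene, so no value per line can be shown and the depth of each library is unknown. Called means an adjusted p under 0.05 in the authors' deposited table, where the columns are those of edgeR's quasi-likelihood test. Standard errors and 95% intervals given below are approximate and were derived from the deposited log2 fold change, F and p. A positive log2 fold change is read as higher in the SEP3Δtet lines, since the table's name puts that genotype first. SEP3, the gene of the transgene, was higher in the SEP3Δtet lines by 2.27 on the log2 scale in the authors' deposited table (adjusted p = 1.14e-04). In whole inflorescences, fewer cells of a type and less RNA per cell cannot be told apart, which applies to each difference below.

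The members spanned a wide range of abundance. Per kb of transcript, the average level over all libraries of the authors' fit was 6.67 log2 CPM for FIL, 5.66 for YAB3, 4.92 for CRC and 4.78 for YAB2. KAN2 followed at 3.81 log2 CPM per kb. AS2 (2.98), KAN1 (2.96) and KAN3 (2.92) came next, on the same scale. YAB5 averaged 1.61 log2 CPM per kb and INO -0.92, the lowest of the members. On the scale of log2 CPM without regard to length, FIL (6.82) lay at percentile 91.0 of all genes in the authors' deposited table and INO (-0.65) at percentile 0.6. The spread of these levels between libraries is not known, so neighbours in the order cannot be tested against each other.

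**Figure D1:**
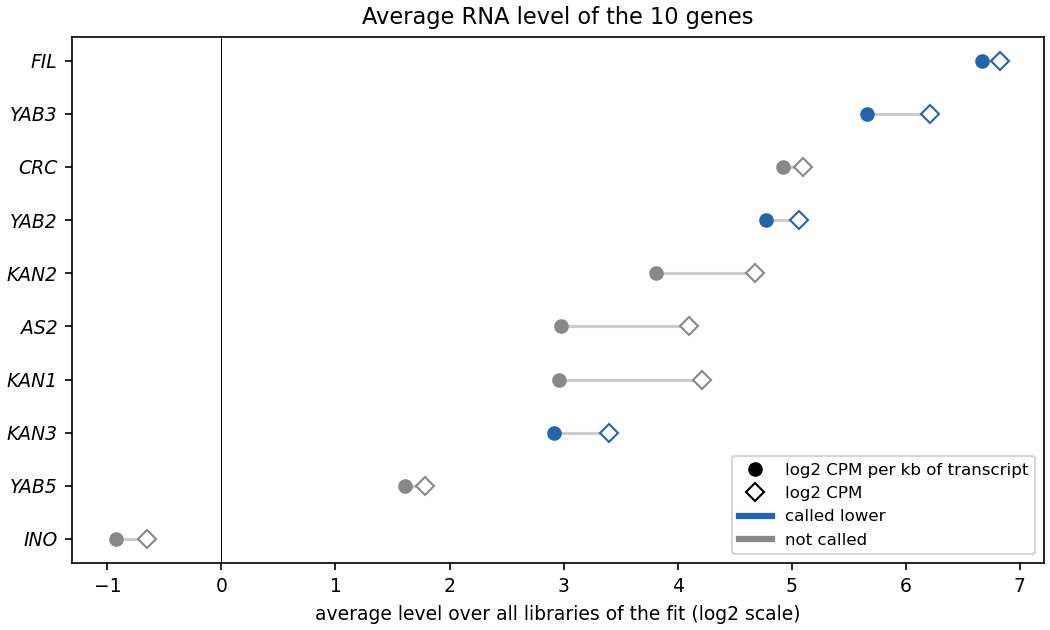
Average RNA level of each member across the libraries of the authors' fit, on a log2 scale (circles, log2 CPM per kb of transcript; diamonds, log2 CPM). FIL and YAB3 are the most abundant members and INO the least, at -0.92 log2 CPM per kb.

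FIL, YAB2, YAB3 and KAN3 fell in the SEP3Δtet lines, and no member was called higher. Of the 10 members, 4 were called lower, 0 higher and 6 were not called in the authors' deposited table. Lower calls make up 5.88% of all genes in that table and higher calls 11.6%. The band between 4 and 8 log2 CPM holds 7 members, of which 3 were called lower, and 7.73% of all genes of that band were called lower in the authors' deposited table. The median log2 fold change of the 10 members was -0.21, beside a median of -9.4e-04 over all genes. Genes of 1 family share ancestry and often regulation, so the members are not replicates of one another.

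Among the members, the YABBY genes FIL, YAB3 and YAB2 of leaves and floral organs had the smallest p-values. FIL, the most abundant member, stood at 64.8% of its triple-mutant level in the SEP3Δtet lines, from the fold change in the authors' deposited table. In the authors' deposited table its log2 fold change was -0.63 (approximate SE 0.08, interval -0.80 to -0.45, adjusted p = 1.68e-04 by edgeR, F = 62.0). By p it ranked 23 among the 1163 genes called lower. YAB3, which acts redundantly with FIL in organ growth, had a log2 fold change of -0.71 in the authors' deposited table (approximate SE 0.10, interval -0.94 to -0.49, adjusted p = 4.84e-04 by edgeR). That is 1.64-fold lower than in the triple mutant, and rank 41 by p among the lower calls. YAB2, a further member of this group with a role in blade growth, stood at -0.54 in the authors' deposited table (approximate SE 0.09, interval -0.73 to -0.34, adjusted p = 0.00133 by edgeR). The 3 intervals overlap, and differences between the genes were not tested. YAB5, the least abundant of the group, had a like estimate of -0.42 in the authors' deposited table but was not called (adjusted p = 0.337 by edgeR). Its interval ran from -0.9995 to 0.16 at an average of 1.78 log2 CPM, so a decrease as large as that of FIL and no change both lie inside it. FIL lies on chromosome 2 from 18628252 to 18630779 (minus strand, 7 exons), YAB3 on chromosome 4 from 72545 to 75576 (minus strand, 7 exons) and YAB2 on chromosome 1 from 2675813 to 2679824 (plus strand, 6 exons), in TAIR10.1.

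CRC and INO, the YABBY genes of carpels and ovules, had positive estimates and were not called. CRC, which promotes carpel polarity, floral determinacy and nectary formation, stood at 0.24 in the authors' deposited table and was not called (interval -0.22 to 0.71, adjusted p = 0.495 by edgeR). Its average of 5.10 log2 CPM was close to that of YAB2, 5.06, yet its approximate SE of 0.21 was at percentile 95.9 among 4112 genes of like abundance (within 0.5 log2 CPM). For YAB2 that percentile was 14.2. INO, needed for outer integument growth, had the largest estimate of the members, 4.69 in the authors' deposited table, and was not called (F = 2.88, unadjusted p = 0.119, adjusted p = 0.300 by edgeR). With an average of -0.65 log2 CPM it was barely detected, and its interval ran from -1.43 to 10.82. A fitted fold change of a gene with so few reads depends on the prior count and is no bound on the true change. In TAIR10.1, CRC lies on chromosome 1 from 26007350 to 26009141 (minus strand, 7 exons), INO on chromosome 1 from 8317297 to 8319491 (plus strand, 7 exons) and YAB5 on chromosome 2 from 11303455 to 11307010 (minus strand, 7 exons). CRC overlaps AT1G69170 on the opposite strand by 19 bases, and that gene stood at -0.12 in the authors' deposited table, without a call.

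**Figure D2:**
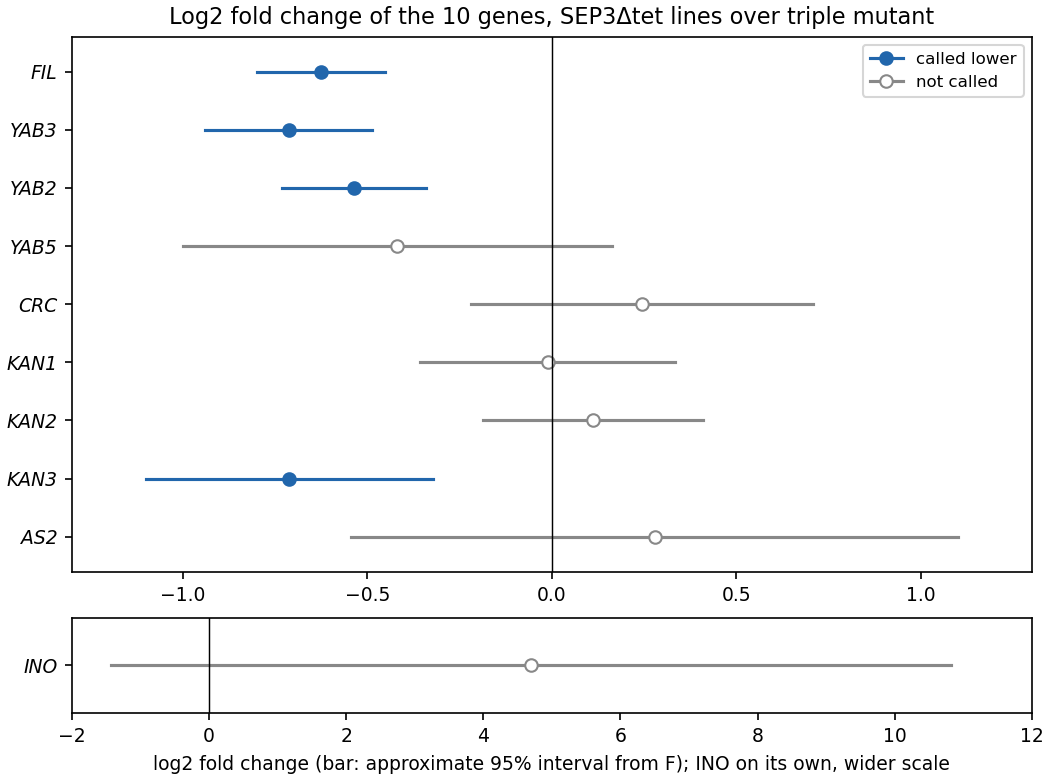
Log2 fold change of each gene, SEP3Δtet lines over triple mutant, with approximate 95% intervals derived from F (filled blue, called lower; open grey, not called). The intervals of FIL, YAB3, YAB2 and KAN3 lie below 0 and that of INO, on its own wider axis, runs from -1.43 to 10.82.

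Of the 3 KANADI members, 1 was called. KAN3 fell by 0.71 on the log2 scale in the authors' deposited table (approximate SE 0.18, interval -1.10 to -0.32, adjusted p = 0.0161 by edgeR), which is 1.64-fold lower. KAN1, the founding member, which specifies abaxial identity together with KAN2, stood at -0.01 in the authors' deposited table (interval -0.36 to 0.33, adjusted p = 0.978 by edgeR). KAN2 stood at 0.11 in the authors' deposited table (interval -0.19 to 0.41, adjusted p = 0.646 by edgeR). The interval of KAN3 overlaps the lower end of that of KAN1 and does not reach that of KAN2, its closest relative in sequence among these genes, but the differences between the genes were not tested. KAN1 overlaps AT5G16550 and AT5G02555 on the opposite strand by 460 bases in all. No source used here states whether counting used strand, so how reads of the overlap were assigned or left out is unknown. AT5G16550 stood at 0.002 in the authors' deposited table and was not called. KAN4, the family's integument gene (also named ATS), is not among the 10 and rose by 1.73 in the authors' deposited table (adjusted p = 0.0109 by edgeR) at an average of 1.05 log2 CPM. In TAIR10.1, KAN1 lies on chromosome 5 from 5406863 to 5411766, KAN2 on chromosome 1 from 11625616 to 11630745 and KAN3 on chromosome 4 from 9847933 to 9850927, each on the minus strand with 6 exons.

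AS2, the adaxial member, stood at 0.28 in the authors' deposited table, without a call (adjusted p = 0.672 by edgeR). Its interval ran from -0.54 to 1.099. The approximate SE of 0.36 was at percentile 98.2 among 3595 genes of like abundance, whose median was 0.13. Its partner AS1 fell by 0.50 in the authors' deposited table (adjusted p = 0.00290 by edgeR) at an average of 7.42 log2 CPM. The 2 genes of this protein pair thus differ in call, and whether their changes differ was not tested. AS2 lies on chromosome 1 from 24398143 to 24400989 (plus strand) in TAIR10.1, with 3 exons of which 1 is coding.

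**Figure D3:**
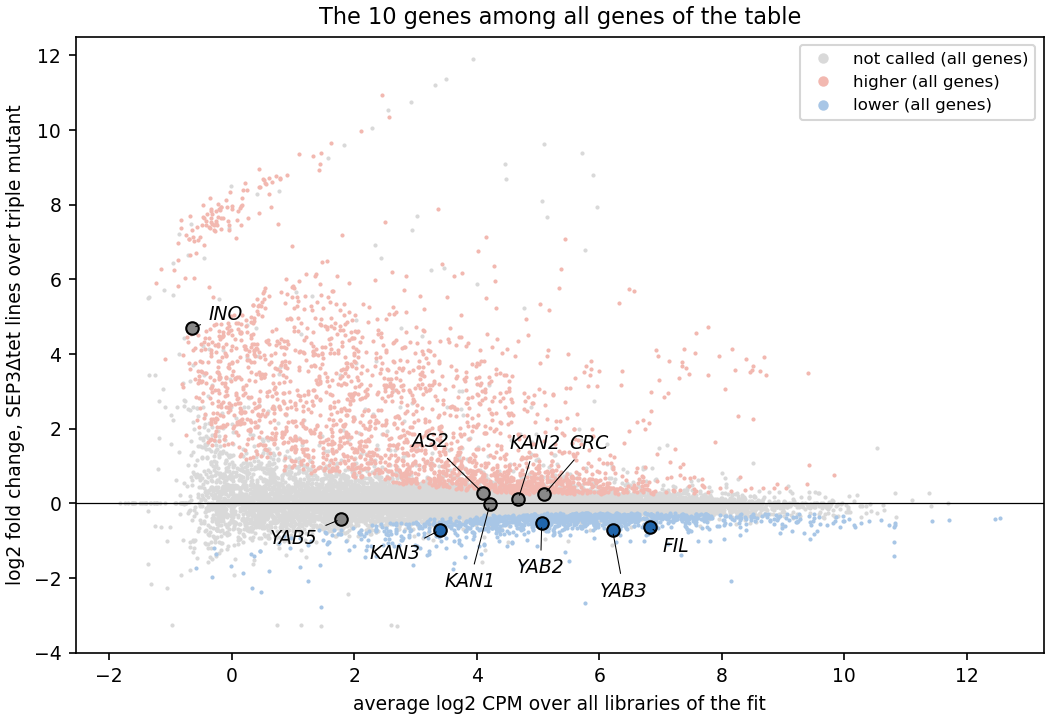
Log2 fold change against average log2 CPM for all 19777 genes of the authors' deposited table (pale points by call), with the 10 genes marked. FIL, YAB3, YAB2 and KAN3 lie among the lower calls at -0.54 to -0.71, while INO lies at 4.69 among scarce genes.

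Promoters were searched for the CArG box, a motif of MADS-domain proteins, in the form CCWWWWWWGG, where W is A or T. This pattern reads the same on both strands and therefore needs 1 search. None of the 10 members held a match to it in the 300 bases before the annotated gene start, nor in the 1000 bases before it. Of 19755 genes in the table with such windows, 3.01% held it in 300 bases and 7.22% in 1000. The absence says only that this exact pattern is not in these windows, and variant forms of the box were not searched.

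Other genes of the polarity pathway were counted from lists, beside the 5.88% of all genes called lower and the 11.6% called higher in the authors' deposited table. HD-ZIP III genes, which encode adaxial homeodomain regulators, included 3 that fell among 5, with 0 higher and 2 not called. PHB (log2 fold change -0.65, adjusted p = 0.00102), REV (-0.40, adjusted p = 0.00532) and ATHB8 (-0.52, adjusted p = 0.0306) fell in the authors' deposited table by edgeR's test. None of the 4 LITTLE ZIPPER genes, whose small proteins inhibit HD-ZIP III proteins, was called by edgeR's test, and 0 had an unadjusted p under 0.05. The median log2 fold change was -0.40 for the 5 HD-ZIP III genes and 0.11 for the 4 LITTLE ZIPPER genes. Over the 9 genes together it was -0.14.

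The list of abaxial auxin response factors and the tasiRNA pathway that restricts them held 2 genes that fell, 0 that rose and 7 without a call, of 9. TAS3, the precursor of the small RNAs that target ARF3 and ARF4, had a log2 fold change of -0.93 in the authors' deposited table (adjusted p = 0.00115 by edgeR). ARF4 fell by 0.41 in the authors' deposited table (adjusted p = 0.00600 by edgeR), whereas its close relative ARF3, also known as ETT, stood at -0.11 (adjusted p = 0.384). The list's median was -0.24. ARF3 was named after its value was seen.

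Partners and relatives of the members included 2 that fell, 1 that rose and 6 not called, of 9, with a median of -0.17, and the 1 higher call is a share near that over all genes. Beside AS1 and KAN4, given above, the blade margin gene WOX1 fell by 1.36 in the authors' deposited table (adjusted p = 1.48e-04 by edgeR). That estimate lay below those of all members, but differences between the genes were not tested. The WOX1 interval, -1.7365 to -0.9915, overlaps those of KAN3 and YAB5. PRS, of the same list, stood at -0.74 without a call (adjusted p = 0.0572 by edgeR), at an average of 1.80 log2 CPM. LUG, LUH, SEU, SLK1 and SLK2, which encode co-repressors or their adaptors and include known partners of YABBY proteins, were not called, with log2 fold changes from -0.21 to 0.06 in the authors' deposited table. Among the KNOX genes, some of which AS1 and AS2 repress, KNAT1 fell by 0.35 on the log2 scale in the authors' deposited table (adjusted p = 0.0363 by edgeR). The other 3 were not called, and the list's median was -0.24. The KNAT1 call was lost when fold changes were recentred on abundant genes, a shift of -0.04.

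Genes of the tissues in which INO and CRC act were counted in the same way, against the same 11.6% of all genes called higher and 5.88% called lower. In the ovule and integument list 6 of 8 genes were called higher and 0 lower, and the median was 1.63. KAN4 is among the 6 and was also counted with the partners and relatives above. SPL/NZZ (log2 fold change 2.69), which regulates INO expression and sporogenesis, and the ovule identity gene STK (6.09) rose in the authors' deposited table. STK averaged 2.85 log2 CPM, and its interval ran from 4.33 to 7.85. The carpel and ovule MADS genes SHP1 (1.53) and SHP2 (2.58) also rose, in the authors' deposited table. So did SUP (1.36, adjusted p = 0.0481 by edgeR), at an average of only 0.63 log2 CPM. ANT (-0.10), the most abundant gene of the list at 7.26 log2 CPM, and BEL1 (-0.215) were not called. The nectary list had 2 higher calls, 2 lower calls and 2 genes without a call, with a median of 0.43, and SWEET9 was not analysed here. CWINV4, a nectary cell wall invertase gene, stood at 4.97 and the gibberellin oxidase gene GA2OX6 at 4.53 in the authors' deposited table (adjusted p = 0.00387 and 7.61e-05 by edgeR). CWINV4 averaged only 1.63 log2 CPM and GA2OX6 1.73, and the CWINV4 interval ran from 2.92 to 7.01. PIN6 (-0.54) and BOP2 (-0.47) fell in the authors' deposited table. Among 7 carpel genes measured, 1 was called higher, a share near that over all genes, and 0 lower, with a median of 0.22. The higher call was HEC2, which acts in the stigma and transmitting tract (2.74, adjusted p = 0.00214 by edgeR in the authors' deposited table). IND was not analysed here.

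**Figure D4:**
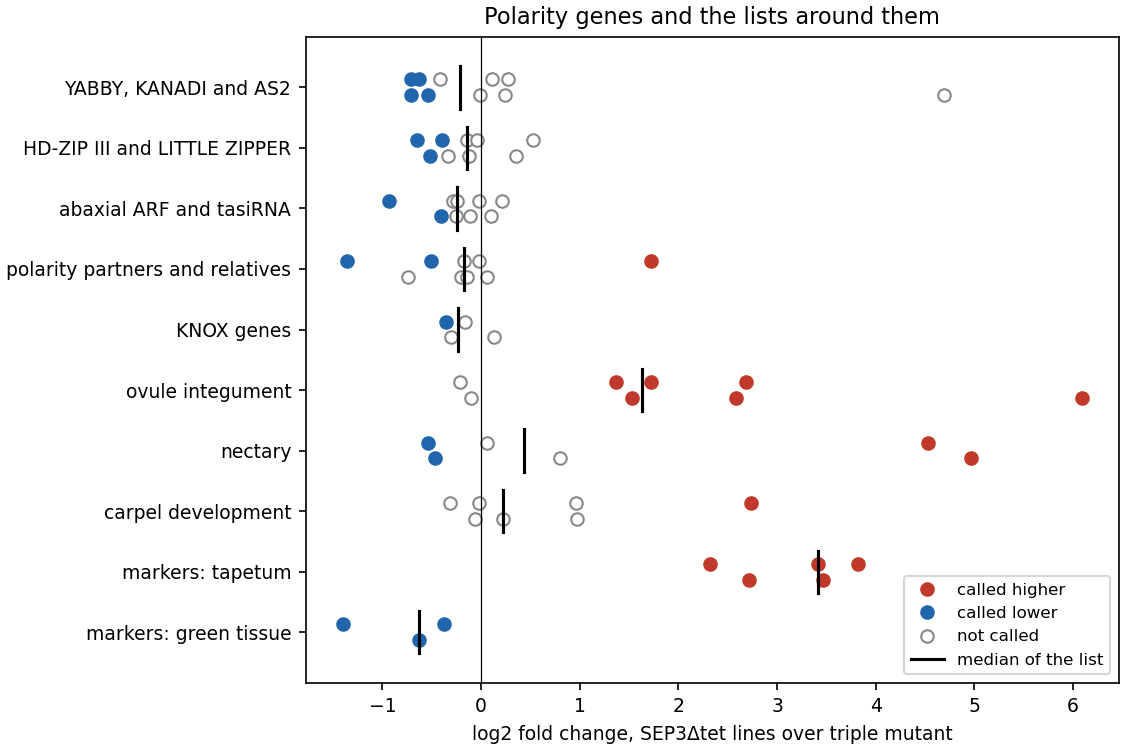
Log2 fold changes, SEP3Δtet lines over triple mutant, of the 10 genes and of the lists around them (red, called higher; blue, called lower; open, not called; black bar, median of the list). The polarity lists have medians between -0.14 and -0.24 and the ovule and integument list one of 1.63.

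Markers of tissue composition moved in the same comparison. All 5 tapetum markers (AMS, MYB80, TDF1, DYT1 and MS1) rose, by 2.32 to 3.82 on the log2 scale in the authors' deposited table. All 3 green tissue markers fell, with log2 fold changes of -1.40 for LHCB1.1, -0.63 for LHCA4 and -0.38 for RBCS1A in the authors' deposited table. LHCB1.1 has near-identical copies, so its value is uncertain. Of the flower markers, PI (0.77) and AP3 (0.33) rose, AP1 (-1.003) and LFY (-0.73) fell, and AG (0.16) had no call, in the authors' deposited table. These 5 averaged 4.36 to 7.81 log2 CPM, so defining floral genes were present in the sampled tissue. Levels of these markers in each group and library are not known, and their part in the decreases of FIL, YAB2, YAB3 and KAN3, and in the values of the lists above, was not tested.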

How the data were processed

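Per the submitters' processing notes, STAR, featureCounts and edgeR were used with the TAIR10 genome. No source used here states their versions, the use of strand, the filter on scarce genes, how reads common to several genes were handled, the model or the number of control libraries. The authors deposited 1 row per gene that holds, per the file headers, the log2 fold change, the log2 CPM averaged over libraries, F as a test score, the p-value and the adjusted p-value. Groups follow the samples' titles. Without values per library, depth is unknown here, and the p-values reflect only the variation among the libraries that entered the authors' fit.

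The deposited adjustment matches Benjamini-Hochberg over all 19777 rows to within 1.8e-15. Approximate standard errors are the absolute log2 fold change divided by the square root of F, and 95% intervals use t quantiles at the denominator degrees of freedom solved from F and p, 11.85 for 86.4% of 19696 genes solved (tolerance 0.02) and fewer for CRC (10.53), INO (10.44) and AS2 (8.63). This code, the adjustment and the motif search were tested on simulated data.

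All 10 members and all 76 listed loci were found in the TAIR10.1 annotation, which gave coordinates, transcript lengths and coding sequences (of the isoform with the longest coding sequence), aligned with MAFFT 7.526 and Biopython 1.88 and searched with BLAST+ 2.17.0. Symbols of the lists were matched by locus. Members, lists and thresholds were chosen with earlier results of these data known. Named genes are the 10 members, up to 4 called genes of smallest p per list, AS1, KAN4 and all markers. Named outside that rule, after values were seen, are ARF3, the co-repressor genes, PRS, ANT, BEL1, SUP, SWEET9, IND, AT1G69170, AT5G16550, AT5G02555, LOB, JLO and SEP3. Gene roles are background knowledge. Alternatives were an adjusted p of 0.01, Bonferroni adjustment, a change of at least 2-fold, adjustment over genes of at least 1 or 4 log2 CPM, and recentring on genes of at least 4 log2 CPM. Statistics used Python 3.11.15 and scipy 1.17.1.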

Additional observations from a re-analysis of the deposited data

How the results depend on the processing

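No paired analysis was possible because the table holds no values per library, and for the same reason no line could be left out in turn. The 4 decreases (FIL -0.63, YAB2 -0.54, YAB3 -0.71, KAN3 -0.71) have the same log2 fold change in each alternative except recentring, so their sign is no test of stability and only the calls can change. KAN3, under 4 log2 CPM, drops out of that filter, which leaves 3 members lower. By Bonferroni adjustment and at a change of at least 2-fold, 0 members were lower and 10 had no call; at an adjusted p of 0.01 KAN3 (-0.71) was lost. After recentring and at 1 log2 CPM or more, 4 members were lower. Over all genes, lower calls went from 1163 to 854 after recentring and to 1098 at 1 log2 CPM or more. At 4 log2 CPM or more, 861 of 11607 genes were called lower.

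Lists lost calls as thresholds tightened. Lower calls at Bonferroni were 0 for the HD-ZIP III and LITTLE ZIPPER, ARF and tasiRNA, partner, KNOX and nectary lists, and at 2-fold 0 for the same lists but 1 for the partners. KNOX lower calls were also 0 at an adjusted p of 0.01 and after recentring. Higher calls at Bonferroni were 2 for ovule, 1 for nectary and 0 for carpel and partner genes. Partner genes also had 0 higher calls at an adjusted p of 0.01. Among genes of at least 4 log2 CPM, higher calls were 0 for the ovule, nectary, carpel and partner lists, and lower calls 1 for the ARF and 1 for the partner list, because scarce genes are left out. LBD higher calls were 2 at Bonferroni, 4 at an adjusted p of 0.01, and 5 and 1 at 1 and 4 log2 CPM or more. Over all genes, higher and lower calls were 481 and 14 at Bonferroni, 1482 and 419 at an adjusted p of 0.01, 707 higher at 4 log2 CPM or more, and 74 lower at 2-fold.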

Other observations

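AS2 belongs to the LBD family of LOB-domain genes, some of which act at organ boundaries. Of the other 42 family loci, 19 were measured, of which 8 rose, 0 fell and 11 were not called in the authors' deposited table, where 11.6% of all genes were called higher. The median log2 fold change of the 19 was 0.47. LBD2 (log2 fold change 3.96, adjusted p = 2.67e-06), AT5G15060 (3.75, adjusted p = 1.17e-05) and ASL1, an AS2-like gene (3.18, adjusted p = 0.00112 by edgeR), were higher in the authors' deposited table. LBD7 rose as well in the authors' deposited table (4.54, adjusted p = 0.00165 by edgeR) at an average of 0.34 log2 CPM. LOB, the gene with the best-scoring match to AS2 elsewhere in the genome, stood at -0.45 in the authors' deposited table and was not called (adjusted p = 0.122 by edgeR), and the boundary gene JLO stood at -0.58 (adjusted p = 0.364). LOB and JLO were named after their values were seen.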
